A study of Mus musculus with 2 samples.

Results

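Bidirectional coding promoters are the short stretches of DNA between 2 protein-coding genes that are transcribed away from each other. They were found in the mouse annotation as pairs of autosomal protein-coding genes on opposite strands whose coding start sites diverge and lie at most 1000 bp apart, and whose gene bodies do not overlap. For each pair of genes the closest start sites were taken. The rule gave 696 pairs with 1379 genes, which is 6.66% of the 20722 autosomal genes with a coding start site. Of these genes 13 belonged to 2 pairs, 3 pairs of symbols were listed a second time because the annotation holds a gene under 2 identifiers, and the windows merged to 682 separate stretches of the genome. Open chromatin was measured by DNase-seq in newborn thymus, taken at postnatal day 0 from healthy B6NCrl mice and labelled as mixed sex. There was 1 group of 2 biological replicates, which share a donor label and differ in their biosample. Whether they are separate animals or pools is not clear from the labels. DNase-seq maps the places where the nuclease DNase I cuts chromatin readily, which are those free of packed nucleosomes.

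Divergent gene pairs are common in mammals, and many hold genes needed by every cell, such as those for DNA repair, mitochondria and histones. Their start sites mostly lie in CpG islands, which are stretches rich in the dinucleotide CG, and usually lack a TATA box. A shared promoter can serve both genes, and paired genes are often, but not always, expressed together. T cells mature in the thymus, and most of its cells at birth are thymocytes, many of them dividing.

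The stretches between the start sites of 6 pairs are printed because they carry the features described below and hold no base of either gene body. They come from the GRCm38 (mm10) assembly, plus strand, 5' to 3', without the start site bases themselves. Capitals mark matches to the consensus sequences searched, on either strand. Dtl/Ints7 (chr1:191575545-191575635) and Rpa1/Smyd4 (chr11:75348325-75348432) were among the 4 pairs that shared the highest sum of strongest scores, 289. Styxl1/Mdh2 (chr5:135778386-135778479) holds the BANP element, Aimp2/Pms2 (chr5:143909848-143909963) holds an ETS site between 2 GC boxes, the first of which overlaps it, Phtf2/Tmem60 (chr5:20882125-20882190) holds no match, and Rad51c/Tex14 (chr11:87404955-87405064) had its strongest peak outside the stretch.
Dtl/Ints7: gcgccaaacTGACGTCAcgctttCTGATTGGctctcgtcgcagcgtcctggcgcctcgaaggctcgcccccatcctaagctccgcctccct
Rpa1/Smyd4: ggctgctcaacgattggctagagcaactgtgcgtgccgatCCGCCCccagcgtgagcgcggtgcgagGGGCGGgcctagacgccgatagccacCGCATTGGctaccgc
Styxl1/Mdh2: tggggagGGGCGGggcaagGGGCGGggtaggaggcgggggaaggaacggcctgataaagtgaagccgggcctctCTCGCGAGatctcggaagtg
Aimp2/Pms2: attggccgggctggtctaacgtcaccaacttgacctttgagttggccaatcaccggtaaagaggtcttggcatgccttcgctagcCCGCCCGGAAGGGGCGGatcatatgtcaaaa
Phtf2/Tmem60: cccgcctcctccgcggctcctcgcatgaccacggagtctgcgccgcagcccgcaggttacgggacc
Rad51c/Tex14: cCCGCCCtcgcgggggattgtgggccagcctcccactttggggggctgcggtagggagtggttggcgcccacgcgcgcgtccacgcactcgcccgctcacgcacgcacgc
The first holds a cyclic AMP element and an inverted CCAAT box, which NFY binds. In the second, 2 GC boxes in opposite orientation and an inverted match to CCAATNNG, the form of the CCAAT box searched, stand in 108 bp. CCAAT strings without that last G, such as the inverted one near the start of this stretch, are not marked. The stretches of these pairs had 55.2% to 75.5% G and C.

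Nearly every pair lay in open chromatin. A peak midpoint fell within the window from 1000 bp before to 1000 bp after the pair at 673 pairs (96.7%) in replicate 1. In replicate 2 it did so at 672 (96.6%), and in both replicates at 669 of 696 (96.1%). Of all autosomal coding genes, 60.2% had a peak in both replicates within 1000 bp of their first coding start site. As a comparison, single start sites were taken, the first coding start sites of 18083 genes in no pair, with no start site of another coding gene within 1000 bp. They had a peak at 58.5% in replicate 1 and 57.8% in replicate 2. The mean share was 96.6% ± 0.102 at pairs and 58.2% ± 0.516 at single start sites (SD, n = 2), a difference far larger than the spread between replicates. The start sites of a pair were the closest 2 among all coding start sites of its genes. Genes of the comparison sets were read only at their first coding start site, so peaks at their other start sites could be missed. The part of this choice in this and later comparisons was not tested. A pair window holds 2 start sites and is wider by the gap. With a window of 1000 bp to each side of the middle of the pair, the same width as at single start sites, the shares were 96.6% and 96.4%. Regions are not replicates of a condition and there was 1 group, so no test was possible, and the spread between 2 samples with a shared donor label may be technical. No label or file gives the number of reads behind each list, so depth is unknown. Of 66 single start sites of a list of T cell genes, 61 had a peak in both replicates, beside 55.7% of all single start sites. Their median strongest scores, 109 and 112.5, were no higher than the 109 and 115 of all single start sites with a peak, and other lists, such as DNA replication and repair with 74 of 76, had a like share.

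The peaks at pairs were strong. The authors' score runs from 1 to 150 per peak in both lists, and no label or file says what it counts. It ranks peaks within a list. The strongest peak of a pair had a median score of 126 in replicate 1 and 132 in replicate 2, with quartiles of 117 and 132 in the first list and 124 and 138 in the second. Single start sites with a peak had medians of 109 and 115 and much lower first quartiles of 72 and 71. In percentiles of its own list, the median pair stood at 97.5 and 97.3 and the median single start site at 92.9 and 93.0. The strongest score was at least 100 in both replicates at 615 pairs (88.4%), beside 39% of all autosomal coding genes and 33.2% of single start sites. The median was 17 higher at pairs than at single start sites in each replicate. Within gene classes this lead varied. Pairs of some classes scored no higher than single start sites of the same class, as given below. The part of gene class in this lead was not tested.

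**Figure D1:**
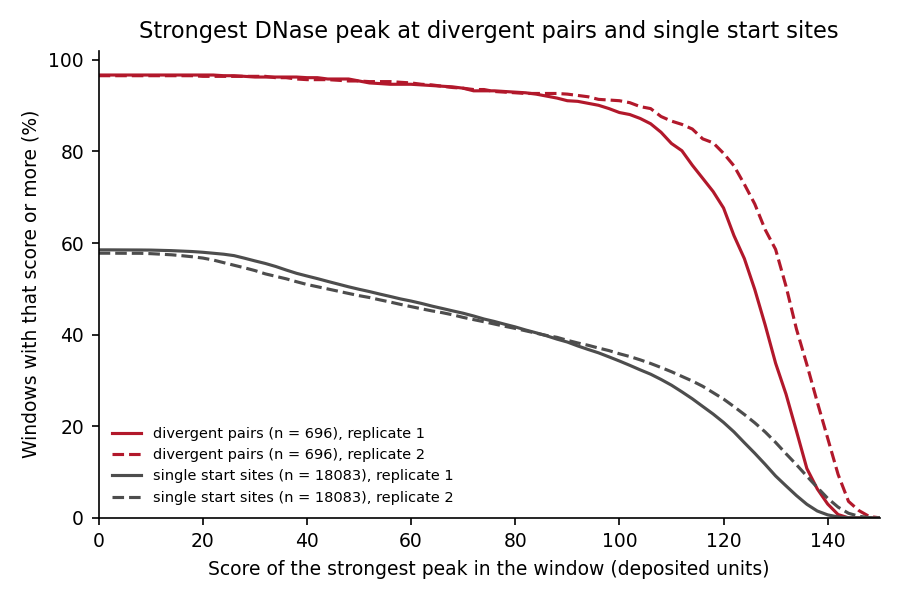
Percentage of windows (vertical axis) whose strongest DNase peak has at least the score on the horizontal axis (deposited units, 1 to 150), for 696 divergent pairs (red) and 18083 single start sites (grey), with replicate 1 solid and replicate 2 dashed. The pair curves start at 96.7% and 96.6% and stay high up to scores near 100, whereas the single start sites start at 58.5% and 57.8% and fall steadily.

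The 10 pairs with the highest sum of strongest scores had values of 138 to 143 in replicate 1 and 144 to 148 in replicate 2. Dtl/Ints7 scored 141 in replicate 1 and 148 in replicate 2, where 148 was the highest score of any pair and was reached by 1 other. The other was Fbxo24/Lrch4, named after its values were seen, with 135 in replicate 1. Dtl encodes the substrate receptor of a ubiquitin ligase that acts in S phase, and Ints7 a subunit of the Integrator complex, which processes small nuclear RNAs. Its strongest peak had its midpoint inside Ints7 in both replicates. Rpa1/Smyd4 scored 143 and 146, and Rpa1 encodes the large subunit of replication protein A, which coats single-stranded DNA. Hspa14/Cdnf, with a chaperone gene and a gene for a neurotrophic factor, scored 143 and 146. Gm45902/Cdnf shares that peak and its plus-strand gene, so both stand for the same promoter on chromosome 2. Mob3a/Izumo4 scored 141 and 146. Phtf2/Tmem60 scored 143 and 144, with the midpoint inside Tmem60 in both. Rnf5/Agpat1 scored 140 and 147, with a ubiquitin ligase of the endoplasmic reticulum and an acyltransferase of phospholipid synthesis. Mastl/Yme1l1, with the mitotic kinase Greatwall and a protease of the inner mitochondrial membrane, scored 138 and 147. The last of them, Rer1/Morn1 and Styxl1/Mdh2, the latter with mitochondrial malate dehydrogenase, scored 139 and 146, and 141 and 144. All 10 were higher in replicate 2 than in replicate 1, as were most pairs.

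Pairs were more frequent among the strongest promoter peaks than among all of them. Peaks within 1000 bp of a coding start site and shared by both replicates numbered 24530, and 1304 (5.32%) of them lay in a pair window. Of the strongest 1000 by the sum of percentile ranks, 110 (11.0%) did, of the strongest 100, 10, and of the strongest 10, 3. The exact 95% binomial interval for the strongest 100 was 4.90% to 17.6%, counting error alone. It includes the 5.32% of all shared promoter peaks. By decile of strength, the share was 11.0% in the strongest, 9.50% in the next and 6.56% in the one after, and between 2.89% and 5.14% in the remaining ones.

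Strongest scores differed between replicates in a common direction. Over the 669 pairs with a peak in both, replicate 2 minus replicate 1 averaged 5.92 with an SD of 7.08 across pairs, and replicate 2 was higher at 526 pairs. Single start sites shifted by 2.62 on average. The ranks of scores across pairs had a Spearman's rho of 0.788, and across single start sites, which span a wider range, of 0.943. These are correlations across regions of the same 2 libraries. The strongest peaks of both replicates overlapped at 621 of 669 pairs, and their midpoints were a median of 20 bp apart, which is the step of the grid on which peaks start. The 5 pairs with the largest differences were all higher in replicate 2. Dok1/Loxl3, with an adaptor of tyrosine kinase signalling and a lysyl oxidase, scored 79 and 113. Gen1/Smc6, a Holliday junction resolvase and a subunit of the Smc5-Smc6 complex, scored 97 and 127. Shld2/Glud1, with a shieldin subunit and glutamate dehydrogenase, scored 100 and 129. N4bp3/D930048N14Rik scored 88 and 114, and Nrg4/Tmem266 scored 86 and 112. Library depth, which could shift scores, is unknown for both libraries, and its part in these differences was not tested.

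**Figure D2:**
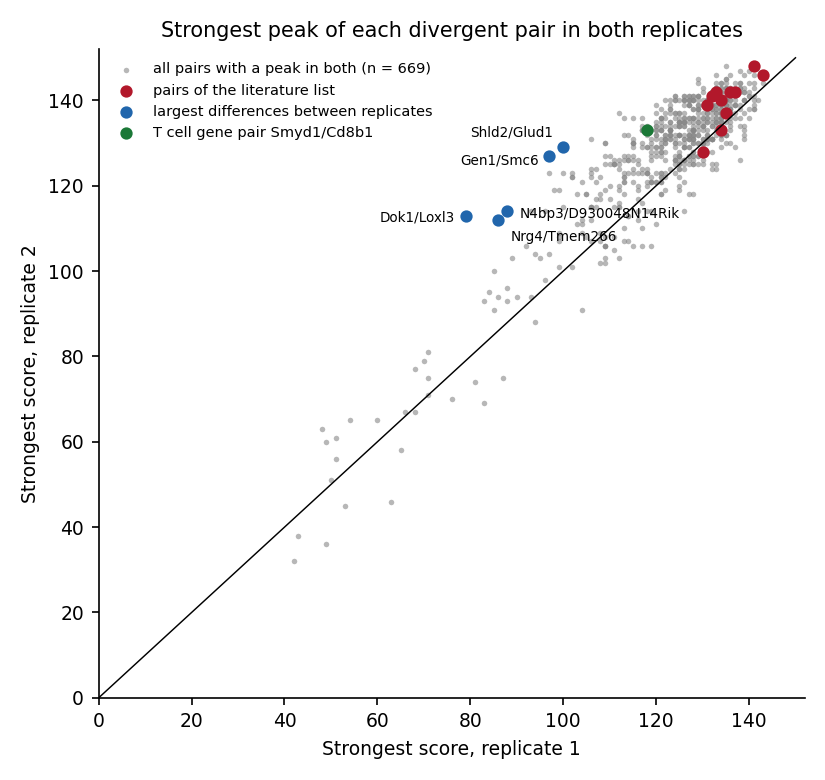
Score of the strongest peak in replicate 1 (horizontal axis) and replicate 2 (vertical axis) for the 669 pairs with a peak in both replicates (grey), with pairs from a list of divergent pairs known from the literature in red, the 5 largest differences in blue and the only pair with a gene of the T cell list in green. Most points lie above the diagonal, with replicate 2 higher at 526 of 669 pairs.

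Pairs held several peaks more often than single start sites. The mean number of peaks per window was 2.82 in replicate 1 and 2.25 in replicate 2 at pairs, and 1.38 and 1.20 at single start sites. Per kb of window the values were 1.28 and 1.02 at pairs and 0.692 and 0.602 at single start sites. With windows of equal width around the middle, pairs held 1.34 and 1.06 per kb. Among windows with a peak, 89.0% and 75.5% of pairs held 2 or more, and 74.0% and 65.4% of single start sites. Replicate 1 had more peaks per pair, and most of the surplus was in the flanks. These held 0.999 peaks per kb in replicate 1 and 0.740 in replicate 2, while the stretch between the start sites held 4.02 and 3.77. The pairs with the most peaks over both replicates were 2700097O09Rik/Srp54a with 6 and 6, Ccni/2010109A12Rik with 6 and 6, Mfsd8/Abhd18 with 5 and 7, Btf3l4/Txndc12 with 6 and 5, and Cbx5/Hnrnpa1 with 5 and 6. In the windows of 2700097O09Rik/Srp54a and Mfsd8/Abhd18, 51.6% and 50.4% of the words of 31 bases recur elsewhere in the genome, so that a read of that length matches more than 1 place, beside a median of 0.556% at pairs with a peak in both. Over the 24 pairs with more than 20% recurring words the mean number of peaks was 2.96 and 3.42, and over the other 672 it was 2.82 and 2.21. The part of recurring sequence in these counts was not tested.

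The distance between the start sites was mostly short. It ran from 1 to 987 bp with a median of 137 bp and quartiles of 72 and 263 bp. A gap of at most 150 bp, the width of a single peak, was found at 377 pairs, over 150 and up to 300 bp at 175, over 300 and up to 600 bp at 96, and over 600 bp at 48. Bag4/Lsm1, with start sites 1 bp apart, scored 124 and 137, Dhrs1/Nop9 at 3 bp scored 96 and 114, and Slc7a6os/Prmt7 at 3 bp scored 134 and 134. In all 3 the strongest peak covered both start sites in both replicates. Nearest to the limit of 1000 bp, Btf3l4/Txndc12 at 987 bp scored 133 and 143, Asphd1/Sez6l2 at 981 bp 116 and 114, and Zfyve26/Rad51b at 978 bp 125 and 124. Just beyond it, Ddias/Prcp at 1005 bp scored 117 and 132, Sgsm2/Tsr1 at 1018 bp 108 and 115, and Dirc2/Hspbap1 at 1019 bp 121 and 133. Scores on both sides of the limit overlapped. The share of pairs with a peak was 97.1% and 96.6% for the shortest gaps and 91.7% in both replicates for the longest, and the median strongest score changed little with the gap, from 125 and 131 in the shortest class to 128 and 135 for gaps over 300 and up to 600 bp.

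The strongest peak usually stood between the start sites. This was so at 455 of 673 pairs (67.6%) in replicate 1 and 444 of 672 (66.1%) in replicate 2, 66.8% ± 1.09 (SD, n = 2). Its midpoint lay in the minus-strand gene at 17.1% and 17.1%, and in the plus-strand gene at 15.3% and 16.8%. Both genes thus held similar shares of the strongest peaks. The share between the start sites was 56.6% and 53.8% for gaps of up to 150 bp, 84.0% and 84.7% for those up to 300 bp, 78.7% and 78.7% for those up to 600 bp and 72.7% and 68.2% for the longest. With gaps of up to 150 bp, 1 strongest peak covered both start sites at 55.2% and 53.0% of pairs with a peak. Over all gaps it covered at least 1 start site at 68.8% and 70.1%, while the strongest peak of a single start site covered it at 48.6% and 51.3%. The median distance of its midpoint to the nearer start site was 46 and 41 bp at pairs and 78 and 71 bp at single start sites. A pair has 2 start sites and a single site has 1, and the part of this in both comparisons was not tested.

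**Figure D3:**
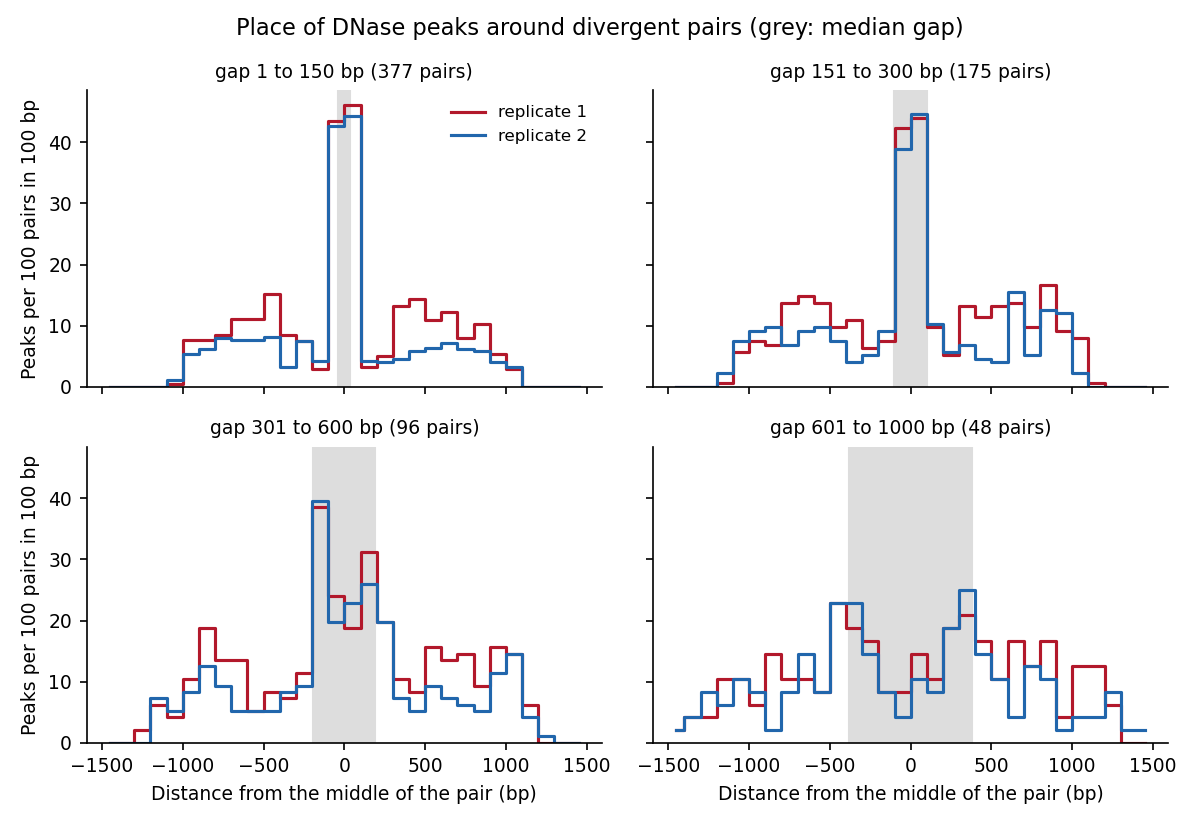
Number of peaks per 100 pairs in bins of 100 bp (vertical axis) by the distance of the peak midpoint from the middle of the pair (horizontal axis, bp), in 4 panels by the gap between the start sites, with replicate 1 in red, replicate 2 in blue and the median gap shaded. Peaks gather at the middle for gaps up to 300 bp. For gaps over 300 and up to 600 bp, counts are higher 150 bp to each side of the middle than 50 bp to each side. For gaps over 600 bp peaks part into 2 maxima near the start sites, where counts are small (48 pairs).

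Where the start sites lay far apart, the strongest peak lay farther from the middle. The median distance of the strongest peak to the middle of the pair was 27 and 30 bp for gaps of up to 150 bp, 34.5 and 32.3 bp for those up to 300 bp, 139 and 138 bp for those up to 600 bp and 365 and 383 bp for the longest gaps. Of the 48 pairs with gaps over 600 bp, 20 in replicate 1 and 24 in replicate 2 had a peak within 150 bp of each of their start sites, 20 and 15 had one at a single start site and 8 and 9 at neither. Where both had one, the scores at the 2 start sites differed by a median of 33 in each replicate. At Btf3l4/Txndc12 and Zfyve26/Rad51b the strongest peak lay 437.5 and 463 bp from the middle in both replicates and covered a start site. At Asphd1/Sez6l2 it lay 82.5 and 142.5 bp from the middle and covered neither.

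Hotspots, the wider enriched regions deposited beside the peaks, usually spanned the whole promoter. A single hotspot covered both start sites at 621 pairs (89.2%) in replicate 1 and 629 (90.4%) in replicate 2. By gap the share was 93.6% and 94.2% up to 150 bp, 89.7% and 90.3% up to 300 bp, 87.5% and 88.5% up to 600 bp, and 56.3% and 64.6% above that. At single start sites a hotspot covered the site at 48.8% and 49.9%. The hotspots over pairs had median widths of 1284 and 1518 bp, and those over single start sites 940 and 1216 bp. Nearly all hotspots over pairs (99.7% and 100%) were at the upper limit of 100 of the deposited −log10 q-value, so their strength could not be compared.

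Pairs lay in CpG-rich sequence, and at like CpG content their share with a peak differed less from that of single start sites. In the 1000 bp around the middle, the median CpG count was 69 at pairs and 37 in the 1000 bp around single start sites. By quartiles of all start sites, with boundaries at 13, 44 and 71 CpGs, 10 pairs fell in the lowest, 60 in the second, 310 in the third and 316 in the highest. In the highest quartile a peak in both replicates was found at 99.1% of pairs and 92.2% of single start sites, and in the third at 98.1% and 86.9%. In the second quartile the shares were 81.7% and 50.4%, and in the lowest 3 of 10 pairs had one beside 9.13% of single start sites. The median strongest score in the highest quartile was 128 and 134 at pairs and 117 and 126 at single start sites, and in the third 125 and 131 beside 115 and 121. The difference in the share of windows with a peak was 5.49 percentage points on average in the highest quartile, beside 38.5 over all windows. The median strongest score differed by 10 and 9.25 in the upper 2 quartiles and by 32 and 33 in the lower 2, beside 17 over all. Within each quartile pairs had the higher share and the higher median score, in both replicates.

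**Figure D4:**
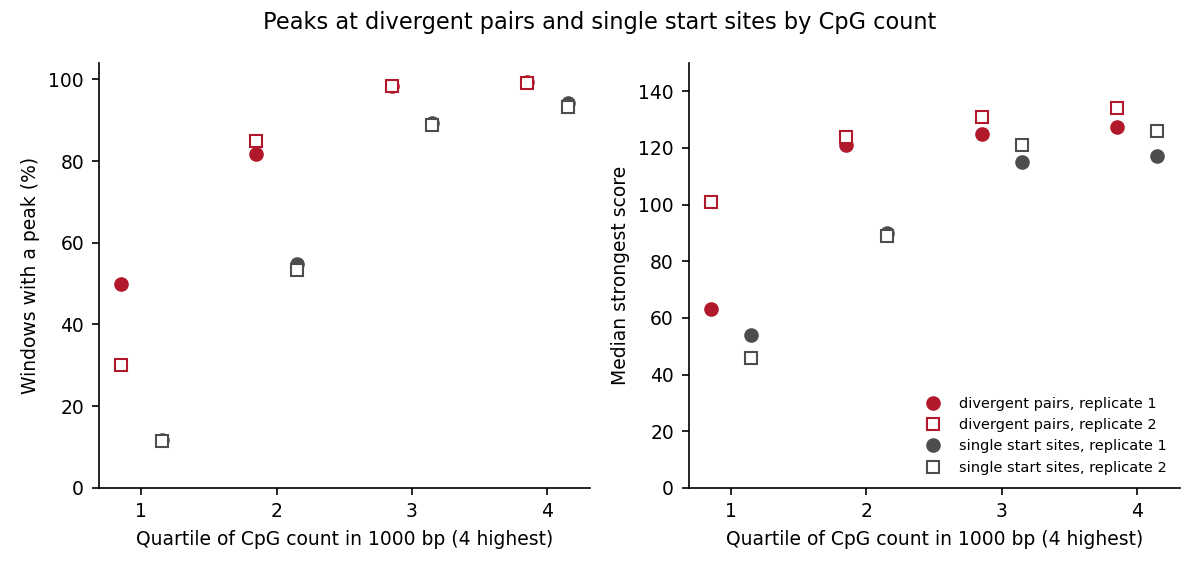
Share of windows with a peak (left, %) and median score of the strongest peak (right, deposited units) by quartile of the CpG count in 1000 bp, for divergent pairs (red) and single start sites (grey), with replicate 1 as filled circles and replicate 2 as open squares. Pairs stand above single start sites in every quartile, and the distance is smallest in the quartiles with the most CpGs. The lowest quartile holds 10 pairs.

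TATA boxes were rare at pairs, and the gene strand held more G than C downstream of the start. TATAAA on the strand of the gene, 40 to 20 bp before the start site, was found at 3 of 1379 start sites of pairs (0.218%) and at 471 of 18083 single start sites (2.60%). In the 200 bp downstream of the start site, on the strand of the gene, G exceeded C by 5.75 percentage points at pairs and by 2.98 at single start sites. In the 200 bp upstream the difference of G and C was -2.07 at pairs and -0.0172 at single start sites. Upstream of a gene in a close pair lies the start of its partner on the other strand, so these stretches overlap.

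The 150 bp of the strongest peak were then read for 12 consensus strings in either orientation. CCGGAAG, bound by ETS factors such as GABPA, was in 21.8% and 21.9% of strongest peaks of pairs, beside 12.6% and 13.1% at single start sites and 14.4% and 14.8% over all coding genes. CCAATNNG, a form of the CCAAT box bound by NFY, was in 21.5% and 22.0%. It was in 13.8% and 13.7% at single start sites and in 14.7% and 14.7% over all genes. Other forms of the CCAAT box were not counted. ACTACAA, the core of the ZNF143 element, was in 5.05% and 4.61%, beside 2.65% and 2.25%, and 2.99% and 2.61% over all genes. CTCGCGAG, the core of the element bound by BANP, was in 2.53% and 2.38% (17 and 16 peaks), beside 1.24% and 1.35%, and 1.48% and 1.53% over all genes. CGCATGCG, for NRF1, a regulator of nuclear genes for mitochondria, was in 3.86% and 4.32%, beside 2.69% and 2.53%, and 2.88% and 2.73% over all genes. TGACGTCA, the cyclic AMP element, was in 4.16% and 3.87%, beside 2.92% and 2.92%, and 3.08% in both over all genes. For these 6 the difference exceeded the spread between replicates, as it did for GGGCGG, AANATGGCG and CACGTG, which are given below. The strongest peaks of both replicates mostly overlap, so both read nearly the same sequence. This spread therefore does not measure the uncertainty of a share.

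The order was reversed for RUNX factors, which act in T cell development among other lineages. Their consensus TGTGGT was in 2.38% and 2.68% of strongest peaks at pairs (16 and 18 peaks), beside 6.48% and 6.38% at single start sites and 6.07% and 6.06% over all coding genes. In the highest CpG quartile the shares were 2.55% and 3.20% at pairs and 3.31% and 3.33% at single start sites, a smaller difference than over all windows. The GC box GGGCGG, bound by SP and KLF factors, was in 56.0% and 57.6% at pairs and 53.5% and 55.1% at single start sites, with 53.6% and 55.1% over all genes. In the highest CpG quartile it was less frequent at pairs, in 64.3% on average, than at single start sites, in 70.9%. ETS and CCAAT boxes stayed more frequent at pairs in that quartile, with averages of 20.7% beside 11.7%, and 20.4% beside 14.7%. There the difference for NRF1 fell to 0.589 percentage points from 1.48, and that for BANP to 0.467 from 1.16. AANATGGCG for YY1 was in 3.12% and 3.42% of strongest peaks at pairs, beside 2.74% and 2.98%, and 3.01% and 3.20% over all genes. CACGTG, the E-box bound by MYC and USF, was in 7.73% and 7.29%, beside 6.63% and 6.61%, and 6.78% and 6.69%. The mean difference for the E-box, 0.886 percentage points, was 0.039 with the annotation's basic transcripts, 0.426 with the stronger 50% of peaks and 2.36 in the highest CpG quartile. TTTCCCGC for E2F was in 9 and 7 peaks, and TATAAA at any place in the peak in 11 and 12. Over all genes those shares were 1.01% and 0.971% for E2F and 2.09% and 1.90% for TATAAA. A GC box can overlap the E2F consensus, and no overlap was removed. A match is a string of letters and not a bound site.

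**Figure D5:**
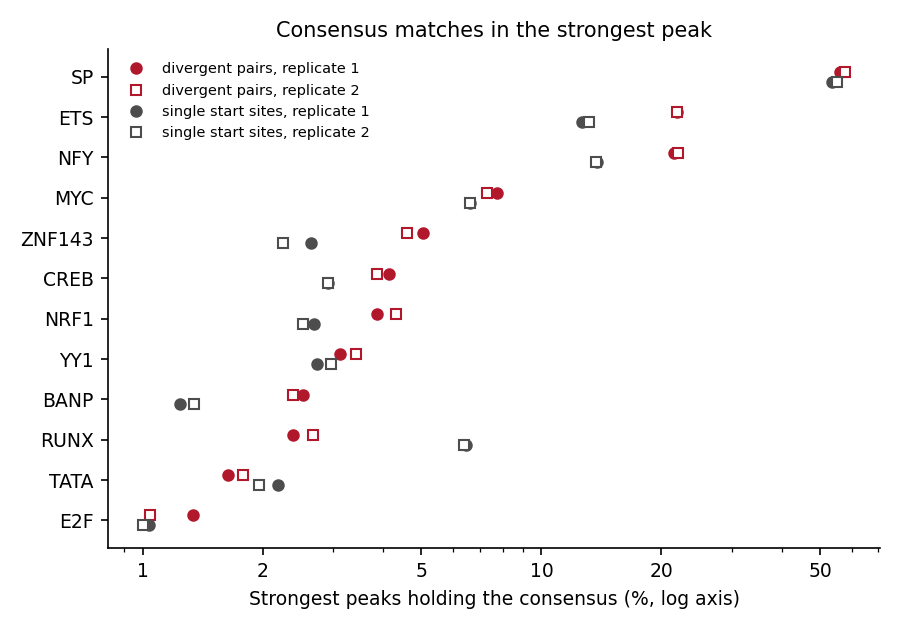
Share of strongest peaks that hold each consensus (horizontal axis, %, log scale) at divergent pairs (red) and single start sites (grey), with replicate 1 as filled circles and replicate 2 as open squares, sorted by the share at pairs. ETS, NFY, ZNF143, CREB, NRF1 and BANP lie further right at pairs, and RUNX lies further left (2.38% and 2.68% beside 6.48% and 6.38%).

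The sequence around the middle of the pairs was read as well. In the 450 pairs with gaps of 50 to 300 bp, the 126 bp around the middle held the ETS consensus at 16.2%, the CCAAT box at 19.1%, the GC box at 53.6%, NRF1 at 4.44% and the BANP element at 3.11%. The 126 bp upstream of single start sites held them at 5.25%, 9.81%, 33.2%, 1.34% and 0.498%. Both sets were read with or without a peak. They differ in their share with a peak and in CpG count, and neither was matched. Where the gap is shorter than 126 bp the central stretch reaches into both genes, so the sequences compared are not alike in kind. The whole stretches between the start sites, whose lengths vary, held the ETS consensus at 17.1%, the CCAAT box at 21.1%, the GC box at 54.4%, NRF1 at 4.44% and BANP at 3.78%. RUNX was in 2.00% of central stretches and 6.95% of upstream stretches, and TATAAA in 1.78% and 7.11%. The YY1 consensus was in 2 of 450 whole stretches between start sites (0.444%), but in 3.12% and 3.42% of strongest peaks, which reach past the start sites into the genes. Of the pairs printed above, the BANP element of Styxl1/Mdh2 stands near the start site of Mdh2, and the strongest peak of that pair, which scored 141 and 144, lay on the Mdh2 side, 77.5 bp from the middle in both replicates.

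Pairs from a list of 43 divergent pairs known in mammals were looked up, and 12 met the rule in mouse. The 12 include 8 with a gene of DNA replication or repair. Rpa1/Smyd4 and Dtl/Ints7 are given above. Brca1/Nbr1, with the breast cancer repair gene and an autophagy receptor, scored 136 and 142. The strongest peak there was not in the gap of 270 bp but inside Nbr1, 676 and 656 bp from the middle, and with flanks of 500 bp in place of 1000 bp the mean strongest score of the pair was 129 in place of 139. Atm/Npat, with the kinase of the double-strand break response and an activator of histone genes, scored 132 and 141 with the strongest peak between the start sites, 23.5 bp from the middle in both. Mcm4/Prkdc, with a subunit of the replicative helicase and the catalytic subunit of DNA-dependent protein kinase, scored 133 and 142. Aimp2/Pms2, with a scaffold of the tRNA synthetase complex and a mismatch repair gene, scored 134 and 133, and 1 peak covered both start sites. Rad51c/Tex14, with a gene of homologous recombination and a gene of germ cell bridges, scored 131 and 139. Its strongest peak lay 479.5 bp from the middle inside Rad51c in both replicates. All peak midpoints of the window, 2 and 1, lay inside Rad51c, and a hotspot covered the start sites only in replicate 2.

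The rest of the known pairs hold other genes. Gart/Son, with an enzyme of purine synthesis and a splicing factor, scored 137 and 142 with the strongest peak inside Son, 541 bp from the middle. Mrps12/Sars2, with a protein of the mitochondrial ribosome and the mitochondrial seryl-tRNA synthetase, scored 135 and 137, 21 bp from the middle. Tmem199/Poldip2, 21 bp apart, scored 130 and 128. Col4a4/Col4a3, which encode chains of the collagen IV of certain basement membranes such as those of the kidney filter, had no peak in either replicate.

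Genes of DNA replication and repair were frequent members. Of 116 autosomal genes of that list, 30 (25.9%) were in pairs, beside 6.66% of all autosomal coding genes. Their 29 pairs all had a peak in both replicates, beside 96.1% of all pairs. Their strongest scores ran from 103 to 143 in replicate 1 and from 118 to 148 in replicate 2. The medians were 131 and 135, beside 126 and 132 over all pairs, and 127 and 131 at 76 single start sites of the same list, of which 74 had a peak in both. Xrcc3/Zfyve21, with a gene of double-strand break repair, scored 133 and 143, and Prpf38a/Orc1, with the largest subunit of the origin recognition complex, 132 and 138.

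Core histone genes pair with each other. Of 70 autosomal core histone genes, 27 (38.6%) were in pairs, and 13 of the 14 pairs joined 2 histone genes, mostly an H2A and an H2B gene. Of the 14 pairs, 11 had a peak in both replicates, beside 96.1% of all pairs, with median strongest scores of 124 and 126. Hist1h2ag/Hist1h2bj scored 134 and 134, Hist1h2bf/Hist1h2ad 132 and 134, and Hist1h2an/Hist1h2bp 129 and 135. The 3 histone pairs with no peak in either replicate were Hist1h2ba/Hist1h2aa, the genes of the germ cell variants, with 9.49% recurring words, and Hist1h2bq/Hist1h2ao and Hist1h2ap/Hist1h2br. In the windows of the latter 2 every word of 31 bases recurs elsewhere in the genome (100%), so no read of that length maps to a single place there. Histone pairs held 3.07 and 3.57 peaks per window on average, more than the 2.82 and 2.25 of all pairs. Their median gap of 259.5 bp was longer than that of all pairs, so their windows were wider. The part of window width and of recurring sequence in these counts was not tested.

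Genes of mitochondria were the other large group. Of 78 genes for mitochondrial ribosomal proteins 18 (23.1%) were in pairs, with medians of 126 and 135. Single start sites of the list had 117.5 and 121. All 18 pairs had a peak in both replicates, beside 96.1% of all pairs, and so did all 44 single start sites of the same list. Mrps18b/Ppp1r10 scored 140 and 144, Mrpl49/Fau 141 and 141, and Ncapd2/Mrpl51 129 and 145. Of 106 genes for subunits and factors of oxidative phosphorylation 22 (20.8%) were in pairs, with medians of 124.5 and 134. All 22 pairs had a peak in both, and 64 of 70 single start sites of the list did. The highest of these were Ndufa2/Ik at 140 and 141, Gm27021/Cox4i1 at 130 and 142, and Atp5h/Kctd2 at 131 and 137. Of 23 genes of mitochondrial import 4 were in pairs, led by Tomm6/Frs3 at 132 and 128.

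Other classes varied in how often they were paired, beside the 6.66% of all genes. Of 28 genes for RNA polymerase subunits 8 (28.6%) were in pairs, with Lnx2/Polr1d at 133 and 141. All 8 pairs had a peak in both, beside 96.1% of all pairs, and so did all 18 single start sites of the list. Of 49 proteasome genes 7 (14.3%) were in pairs, all with a peak in both like 34 of 38 single start sites of the list, led by Mrpl32/Psma2 at 126 and 137. Of 34 tRNA synthetase genes 5 (14.7%) were, with S100pbp/Yars at 133 and 141, and of 84 chaperone genes 12 (14.3%), led by Hspa14/Cdnf. Of 88 genes for cytosolic ribosomal proteins 8 (9.09%) were in pairs, and 7 of 8 pairs had a peak in both, as had 62 of 73 single start sites of the list, with Rpl36al/Mgat2 at 133 and 137. Rnf151/Rps2 had none. Of 235 genes named Tmem 21 (8.94%) were paired, of 385 zinc finger genes named Zfp 17 (4.42%), and of 358 solute carriers 14 (3.91%). Zfp142/Bcs1l scored 139 and 142, and Cdk5/Slc4a2 135 and 144, the highest of the Zfp and solute carrier lists. The lowest of these lists were Zfp944/Zfp758 at 48 and 63, and Sgsh/Slc26a11 at 60 and 65. The lowest chaperone pair, Hspa1a/Hspa1l, had 54 and 65. No gene of the 1126 olfactory receptors, 113 keratins or 66 protocadherins was in a pair.

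Of 73 autosomal genes of the T cell list, 1 was in a pair (1.37%). Smyd1/Cd8b1 joins a gene of heart and skeletal muscle with the gene for the beta chain of the co-receptor CD8, 555 bp apart on chromosome 6 at 71322233 and 71322788. It had 1 peak in replicate 1 with a score of 118 and 3 in replicate 2 with a strongest score of 133. The 1000 bp around the middle held 14 CpGs, far below the median of 69. The strongest peak covered the start site of Cd8b1 in both replicates. No peak midpoint lay within 150 bp of the start site of Smyd1 in either replicate.

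A few pairs lacked a peak in both replicates. None was found at 20 pairs (2.87%), and no hotspot covered either start site of any of them. Of these, 14 had a CpG count in the lower 2 quartiles, beside 52 of the 669 pairs with a peak in both, and their median CpG count was 29 beside 70. Several hold genes known for other tissues. Kirrel2/Nphs1 holds nephrin, the protein of the slit diaphragm of the kidney, and Aspa/Spata22 and Aspa/Gm49340 hold an enzyme of myelin metabolism in brain and a meiosis gene. The Aspa pairs share both start sites, so they stand for the same promoter but are counted separately among the 20. Il11/Tmem190, with a gene for an interleukin, 4931428L18Rik/Pih1d3, Fam217a/4933417A18Rik, Lypd4/Dmrtc2 and Gm9922/Lmo7 also had no peak. Of the 20, 5 had more than 20% recurring words, beside 19 of 669. Besides the 2 histone pairs at 100%, these were Gml/Gml2 with 68.8%, Gm20075/Gm17190 with 53.0% and Gm12355/Gsdma3 with 40.7%. The part of CpG content and of recurring sequence in the absence of peaks was not tested. An absent peak does not show closed chromatin, since the depth is unknown.

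Peaks in a single replicate were rare and weak. There were 4 such pairs in replicate 1 and 3 in replicate 2. Ccnt1/4930415O20Rik scored 38 in replicate 1, Gm10447/Shroom1 29, Ppp1r3d/Fam217b 27 and Best1/Rab3il1 23. In replicate 2, Tssk3/Fam229a scored 36 and Nmur1/Tex44 32. All lie far below the median of 126 and 132, and in 5 of these 6 pairs the peak covered no start site.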

How the data were processed

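DNase-seq of 2 replicates of newborn mouse thymus gave 154812 and 139702 peaks and 135932 and 121064 hotspots. Both were called on each replicate alone on mm10, per the text deposited with the files. For caller, aligner, thresholds and read totals no source used here has an entry, so depth and the precision it gives are unknown. The deposited peak value is a score of whole numbers from 1 to 150, with no stated definition. The deposited hotspot value is a −log10 q-value that ends at 100.

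Pairs were taken from GENCODE release M21 and sequences from the GRCm38 genome of RefSeq. A peak belonged to a window when its midpoint did, and the strongest peak was the one with the highest score. Among equal scores, the peak nearest the middle of the pair, or nearest the single start site, was taken. The part of this rule in the place of strongest peaks was not tested. The flank was 1000 bp. Words of 31 bases were counted as recurring when found elsewhere in the genome on either strand. Consensus matches were exact. Python 3.11.15, numpy 2.4.6 and pandas 2.3.3 were used, and the counting was tested on simulated data.

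The pairs named are the 10 with the highest sum of strongest scores, the first 15 by symbol without a peak, and the known pairs. Others are the 5 with the largest difference between replicates, the 5 with most peaks and the 3 at each side of the gap limit. Further ones are the 3 shortest gaps, pairs with a T cell gene and the 6 strongest seen in 1 replicate. Up to 3 examples per gene class, mostly its highest-scoring pairs, are named as well. Rnf151/Rps2 and the lowest-scoring pairs given for the Zfp, solute carrier and chaperone lists were added after their values were seen. The values of 1 known pair are not reported here. The pairs and the gene lists were chosen with earlier results of these data known. Alternatives covered the gap, transcripts, window, counting rule, peak strength, CpG content, hotspots and each replicate alone.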

Additional observations from a re-analysis of the deposited data

Results flagged for a closer look

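The X chromosome was outside the rule for pairs, and its peaks enter no comparison above. Its 19 divergent coding pairs held 29 peaks in replicate 1 and 23 in replicate 2. A peak in both replicates was found at 14 of the 19 (73.7%), with median strongest scores of 118 and 118.5. No share was taken over all coding genes or single start sites of the X chromosome, so this share has no like comparison.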

How the results depend on the processing

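Values are pairs minus single start sites, mean of both replicates, unless stated. The share with a peak differed by 38.5 percentage points, and by 37.6 with the annotation's basic transcripts, 44.9 with the stronger 50% of peaks, 41.2 with flanks of 500 bp, 38.1 with any overlap of 1 bp and 37.6 with hotspots. Within CpG quartiles from lowest to highest it was 28.5, 29.4, 9.40 and 5.49. Without pairs of over 20% recurring words, chosen after seeing the data, it was 39.1. The strongest score differed by 17, by 12 with the stronger 50% of peaks, by 4.51 in percentile ranks, and by 32, 33, 10 and 9.25 within CpG quartiles. Peaks per window differed by 1.24, and by 0.868 with flanks of 500 bp. The share of strongest peaks between the start sites was 66.8%, and 68.7% with basic transcripts and 68.1% with flanks of 500 bp. The GC box was the reversed case, at -0.615 with the stronger 50% of peaks and -6.63 in the highest CpG quartile, a setting chosen after seeing the data; the cause was not tested. Of 12 consensuses, 10 were more frequent at pairs in both replicates, 8 with the stronger 50% of peaks and 7 in the highest CpG quartile. With each replicate alone the results ranged from 38.2 to 38.8 points, 1.05 to 1.44 peaks, 66.1% to 67.6%, 17 in score, 5.02 to 7.53 points for the strongest 100 promoter peaks (4.68 with both), 10 consensuses, and 40.4 to 40.5 points for hotspots. No paired analysis was possible because there was 1 group. Unknown depth limits what an absent peak shows.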

Other observations

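Pairs just outside the rule were also in open chromatin. Divergent pairs whose gene bodies overlap numbered 370, and 342 (92.4%) had a peak in both replicates, with median strongest scores of 124 and 130.5. Hspd1/Hspe1, which encode the mitochondrial chaperonin and its co-chaperonin, scored 136 and 139, and Psmb9/Tap1, with a subunit of the immunoproteasome and a peptide transporter of antigen presentation, 121 and 135. Mrpl18/Tcp1 scored 143 and 146, and Eif2b4/Snx17 144 and 147. These 4 were chosen after their values were seen.

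At 103 divergent pairs with gaps over 1000 and up to 2000 bp, 89 (86.4%) had a peak in both replicates, with medians of 121.5 and 127.5. Cd3g/Cd3d, which encode chains of the T cell receptor complex and lie 1355 bp apart, held 6 and 5 peaks with strongest scores of 130 and 134, and was likewise chosen after its values were seen.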
